A study of Mus musculus with 4 samples.

Results

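In haematopoietic stem cells of mouse bone marrow, 600 genomic regions carried a peak in both PPP2CA libraries at the boundary of a long non-coding RNA (lncRNA) gene and away from every protein-coding gene boundary. They made up 4.82% (exact 95% interval 4.45 to 5.22) of the 12438 regions found in both PPP2CA libraries and free of an IgG peak. The regions were chosen from the peak calls themselves. Overlapping peaks of both PPP2CA libraries were merged into 21771 regions, of which 12631 were touched by both libraries. Regions with a peak of either IgG library were removed. Members lay within 1 kb of the start or end of a lncRNA gene and over 1 kb from every start and end of a protein-coding gene, on the GRCm38 gene table. A further 1005 regions of the same 12438 lay at a lncRNA boundary but also within 1 kb of a protein-coding one and were not members.

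The cells were primary stem cells from the marrow of animals with wild-type Ppp2ca, and no other genotype, treatment, age or strain is named in the labels. CUT&Tag, a method that brings a transposase to an antibody's target so that DNA beside it is cut and tagged, was run in 2 libraries with an antibody to PPP2CA and in 2 with IgG, an antibody with no chosen target. No label ties the libraries to different animals, and the spread between libraries may be technical. Peak lists hold no expression values, so the labelled cell type could not be checked against marker RNAs.

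PPP2CA is the catalytic subunit of protein phosphatase PP2A, which removes phosphate from serine and threonine. In the nucleus a form of PP2A works with the Integrator complex, which attends RNA polymerase II soon after transcription begins, at protein-coding and non-coding genes alike. lncRNA genes are transcribed by the same polymerase from promoters of their own, from promoters they share with a neighbour, or from within a host gene. Some lncRNAs act in the nucleus, others serve mainly as hosts from whose introns small nucleolar RNAs (snoRNAs) or microRNAs are cut, and most have no known role.

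The promoters below are shown because they belong to the best or best known lncRNA genes of the set and differ in kind. Each is the RefSeq window of 300 bases, from 250 before to 50 after a listed start, read 5′ to 3′ on the strand of the gene in GRCm38.p6. Capitals mark matches, on either strand, to the 12 short motifs searched, which are spelled out with the promoter results. Malat1, the abundant RNA of nuclear speckles, has its window at chr19:5802623-5802922 on the minus strand. Chaserr, which lies before Chd2 and is known to hold that chromatin remodeller gene down, has its window at chr7:73558346-73558645 on the minus strand. The window of 2410006H16Rik, a snoRNA host, is chr11:62602627-62602926 on the plus strand. That of Mir22hg, the host of microRNA miR-22, is chr11:75461289-75461588 on the plus strand. Dleu2, a microRNA host often deleted in chronic lymphocytic leukaemia, has its window at chr14:61682324-61682623 on the minus strand. Morrbid, which limits the death gene Bcl2l11 in short-lived myeloid cells, has its window at chr2:128429302-128429601 on the minus strand.
Malat1: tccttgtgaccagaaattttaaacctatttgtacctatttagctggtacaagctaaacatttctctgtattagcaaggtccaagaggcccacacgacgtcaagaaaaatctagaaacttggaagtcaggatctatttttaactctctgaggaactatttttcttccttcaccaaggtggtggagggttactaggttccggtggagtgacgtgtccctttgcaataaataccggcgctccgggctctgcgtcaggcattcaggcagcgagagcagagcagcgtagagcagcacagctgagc
Chaserr: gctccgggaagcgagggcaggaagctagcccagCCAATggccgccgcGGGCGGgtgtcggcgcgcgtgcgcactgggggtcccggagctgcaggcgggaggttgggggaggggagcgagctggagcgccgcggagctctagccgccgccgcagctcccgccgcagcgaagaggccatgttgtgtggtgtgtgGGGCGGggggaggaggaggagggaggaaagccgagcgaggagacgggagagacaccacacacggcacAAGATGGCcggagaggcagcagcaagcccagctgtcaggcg
2410006H16Rik: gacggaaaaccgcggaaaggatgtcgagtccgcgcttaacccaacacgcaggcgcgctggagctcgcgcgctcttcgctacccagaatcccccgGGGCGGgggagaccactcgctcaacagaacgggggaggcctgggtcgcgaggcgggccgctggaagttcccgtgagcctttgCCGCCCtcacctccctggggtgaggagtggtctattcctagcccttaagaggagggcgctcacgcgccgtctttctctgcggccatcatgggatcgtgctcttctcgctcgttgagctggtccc
Mir22hg: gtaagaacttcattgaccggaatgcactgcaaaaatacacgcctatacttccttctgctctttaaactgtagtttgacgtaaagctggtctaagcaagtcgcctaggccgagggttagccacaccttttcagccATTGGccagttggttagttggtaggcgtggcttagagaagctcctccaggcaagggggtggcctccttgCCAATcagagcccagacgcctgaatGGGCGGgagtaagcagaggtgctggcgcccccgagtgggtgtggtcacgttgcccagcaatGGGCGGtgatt
Dleu2: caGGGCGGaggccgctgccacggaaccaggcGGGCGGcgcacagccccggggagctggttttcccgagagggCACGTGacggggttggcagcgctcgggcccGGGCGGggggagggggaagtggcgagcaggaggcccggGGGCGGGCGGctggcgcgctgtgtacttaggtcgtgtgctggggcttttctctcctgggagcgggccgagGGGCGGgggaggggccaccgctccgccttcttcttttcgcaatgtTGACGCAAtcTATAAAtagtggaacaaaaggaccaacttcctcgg
Morrbid: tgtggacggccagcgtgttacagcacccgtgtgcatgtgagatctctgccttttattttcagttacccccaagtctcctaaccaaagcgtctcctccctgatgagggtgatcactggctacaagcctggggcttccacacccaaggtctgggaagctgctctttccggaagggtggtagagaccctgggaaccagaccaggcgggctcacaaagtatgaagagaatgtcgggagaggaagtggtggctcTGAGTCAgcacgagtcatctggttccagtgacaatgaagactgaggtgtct

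All 6 windows lay whole within their PPP2CA region. The Malat1 window held none of the motifs, 10 CG dinucleotides and 47.0% G+C. The Chaserr window held 30 CG dinucleotides and 72.3% G+C, with a CCAAT box, 2 GC boxes and the YY1 motif at 9 bases after the start. Dleu2 had the most matches of the 6, 9 in all, 6 of them GC boxes. Mir22hg had 2 CCAAT boxes and 2 GC boxes but only 12 CG dinucleotides. The single match in the Morrbid window was an AP-1 motif beside the start, in a window of 8 CG dinucleotides.

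The height of a region was taken as the number of fragments at its highest summit, recovered from the deposited values. Over the 600 members the median was 21 fragments in PPP2CA 1 and 23 in PPP2CA 2, the range was 5 to 372 and 6 to 390, and the quartiles were 14 and 37.25 in PPP2CA 1. The deposited fold, which is the authors' ratio of a summit to its local background, had a median of 6.04 in PPP2CA 1 and 5.89 in PPP2CA 2. Merged regions were 894 bp wide in the median, from 357 to 3219 bp, and 594 of the 600 were a single peak in each library. A summit of at least 20 fragments in both libraries was reached by 299 members, and one of at least 100 by 31. The lowest summit called in either PPP2CA list had 5 fragments.

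**Figure D1:**
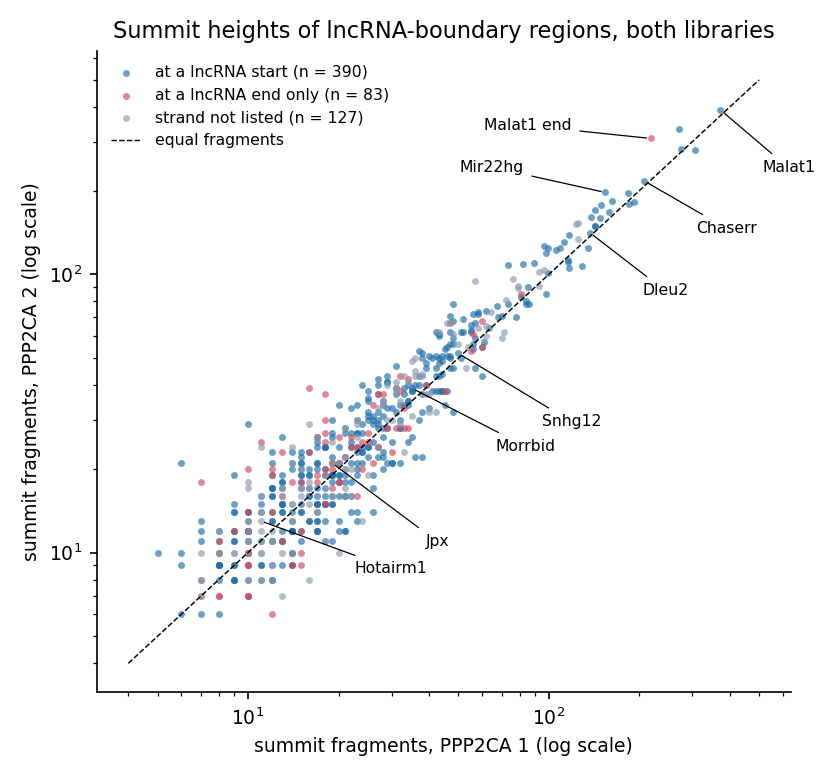
Summit height of each of the 600 lncRNA-boundary regions, in fragments, in PPP2CA 1 (x axis) against PPP2CA 2 (y axis), both on log scales. Colours give the place of the region, the dashed line marks equal fragments, and named points run from Hotairm1 (11 and 13) to Malat1 (372 and 390).

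The 2 PPP2CA libraries were compared at the members they share. At 304 members the summits of the libraries lay within 100 bp of each other and could be compared as the same place. None of these was called different between libraries in an exact two-sided binomial test with Benjamini-Hochberg adjustment over all 6788 regions compared, where 0% were called and the smallest adjusted p was 1. At an unadjusted p under 0.05 there were 11 members (3.62%), beside 140 regions of the whole set (2.06%). Differences were taken after scaling the libraries by their summed fragments at shared summits. Their median size was 0.24 on the log2 scale over the members and 0.21 over the whole set. After this scaling, 141 of the 304 were higher in PPP2CA 2. Regions with a peak in only 1 library, and members whose summits lay farther apart, did not enter the test, so it says nothing of the places where the libraries could differ most. Values are given for each library, with no SD. The test compares 2 libraries and no conditions, and 2 libraries against 2 allow no exact permutation p under 0.333.

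The lists had 16811 and 17686 peaks for PPP2CA and 561 and 310 for IgG. The lowest local background was 0.784 and 0.800 fragments in the PPP2CA lists and 0.0839 and 0.0833 in the IgG lists, a gap of 9.34 to 9.61 times. This limits what the missing IgG peak says of a member. The lowest summit called with IgG had 3 fragments. Strength was scaled here by the lowest background of each list. At 195 members both PPP2CA summits were tall enough that an IgG signal of the same scaled strength would have reached 3 fragments. At the others, a summit of PPP2CA 1 or 2 was too low for that. The local background at each member did not enter, and where it is high, 3 fragments may not be enough for a call.

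Regions at protein-coding boundaries were taller than the members and regions elsewhere were lower. At the 7509 regions with a protein-coding boundary the median was 28 and 31 fragments in PPP2CA 1 and 2, at the 2638 others inside a protein-coding gene it was 18 and 20, and at the 1691 outside protein-coding genes it was 16 and 17. The share with at least 20 fragments in both libraries was 64.7%, 42.6% and 34.4% in these classes, and 49.8% among the members. Median widths followed the same order, at 1004, 825 and 771 bp beside 894 bp. Members were thus between the classes on each measure, while their quartiles overlapped those of every class. The 498 members with no listed protein-coding start within 1 kb were lower, though still between the classes. They had medians of 20 and 21 fragments and 873.5 bp, and 45.8% had at least 20 fragments in both libraries. Because all regions were chosen by peak calls, these are descriptions and no test was made.

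**Figure D2:**
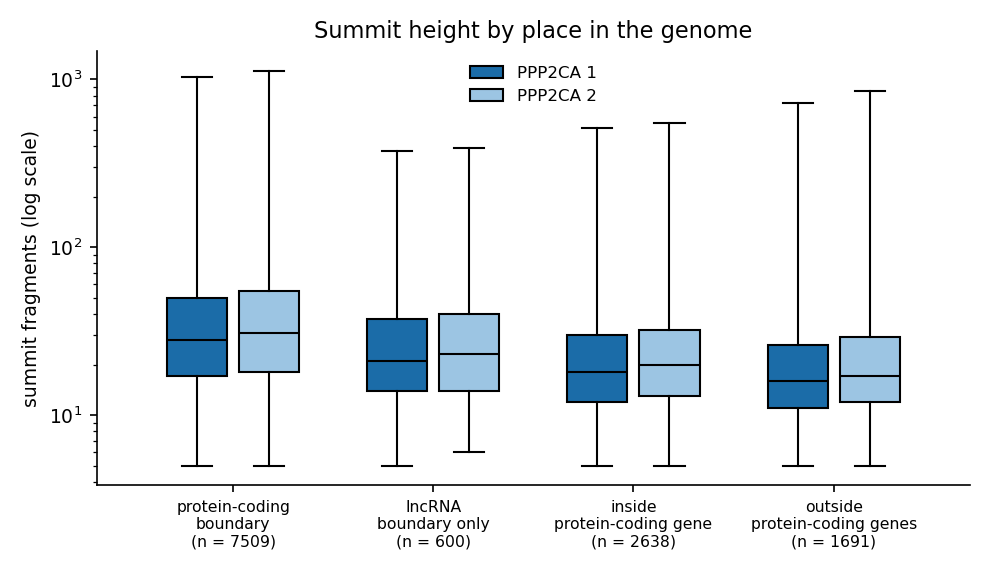
Summit fragments (log scale) of the 12438 regions by place in the genome, in PPP2CA 1 (dark) and PPP2CA 2 (light). Boxes give the quartiles with the median as a line and whiskers reach the lowest and highest region; the 600 lncRNA-boundary regions have medians of 21 and 23, between those at protein-coding boundaries (28 and 31) and those inside (18 and 20) or outside (16 and 17) protein-coding genes.

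Most members sat at the beginning of a lncRNA gene. Of the 600, 390 (65%) were within 1 kb of a start, 83 (13.8%) only of an end, and for 127 (21.2%) the strand of the gene was not listed, so that start and end could not be told apart. Members at starts had median summits of 23 fragments in each library, and those at ends only had 18 and 21. At least 100 fragments in both libraries were found at 27 start regions and at 1 end region, which was the far end of Malat1. The region touched the boundary itself at 357 members.

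Around the 390 starts the summits crowded close to the start site. The median distance was 260.5 bp in PPP2CA 1 and 260 bp in PPP2CA 2, and 189 and 190 summits lay within 250 bp. Summits were on the gene's side of the start at 224 regions in PPP2CA 1 and 229 in PPP2CA 2, with a median position of 65 and 74 bp into the gene. The rule limits the gap between a region and the boundary to 1 kb, which also limits how far a summit can lie. A summit itself can be over 1 kb away. The distances therefore describe the members and are no test of a preference.

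**Figure D3:**
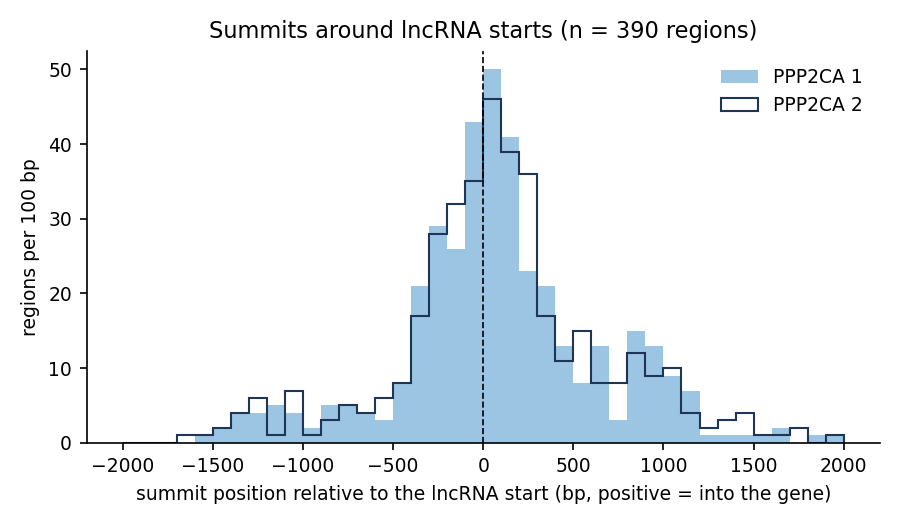
Position of the summit relative to the lncRNA start for the 390 members at a start, in bins of 100 bp, with positive values into the gene; the filled bars are PPP2CA 1 and the outline is PPP2CA 2. Both libraries peak beside the start, with median positions of 65 and 74 bp.

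The regions were far from protein-coding boundaries in most cases but not all were outside protein-coding genes. The median distance to the nearest protein-coding boundary was 13235.5 bp (quartiles 5062.5 and 33300.5), and 337 members were over 10 kb away. Inside the span of a protein-coding gene lay 230 members (38.3%), with medians of 23 and 25 fragments, and outside lay 370, with 20 and 21. The 33 members over 100 kb from any protein-coding boundary had lower medians, 14 and 15 fragments. The most remote, at Gm32703, lay 514588 bp from a boundary inside Pde4d, a gene for a cyclic AMP phosphodiesterase, and had 10 and 11 fragments.

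The rule uses the outermost ends of a gene, and 102 members (17%) lay within 1 kb of another listed start of a protein-coding gene inside its span. These had medians of 33 and 35.5 fragments and 69.6% at 20 or more in both libraries. The other 498 members had medians of 20 and 21. At 87 of the 102 the lncRNA start was also within 1 kb, so that a protein-coding promoter and a lncRNA promoter share the place. Which of the transcripts the signal belongs to was not tested. At lncRNA starts with no such protein-coding start, 303 in number, the medians were 20 and 21.

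The best members, ranked by the worse of their ranks within both lists, included known lncRNAs and starts inside protein-coding genes. Malat1 led with 372 fragments in PPP2CA 1 and 390 in PPP2CA 2 at chr19:5801997-5803986. Its summits lay 758 and 757 bp before the start of the promoter shown above. Chaserr came next with 207 and 217 fragments at chr7:73557930-73559174. Its deposited fold was higher than that of Malat1, 12.04 and 11.8 against 6.70 and 6.17, with a local background of 16.3 and 17.4 fragments against 54.7 and 62.4. D230017M19Rik had 270 and 334 fragments, and its region also holds the small nuclear RNA (snRNA) gene Gm24497.

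Several of the 10 best stood at an inner promoter of a protein-coding gene. The region of 4833438C02Rik, 306 and 281 fragments, lay at a start of Nfkb2, a subunit gene of the transcription factor NF-kappaB. That of 2700012I20Rik, 275 and 283 fragments, lay at a start of Sin3a, the scaffold of a histone deacetylase complex. BC065397 on chromosome X had 148 and 160 fragments at a start of Morf4l2, a chromatin protein gene, and its fold was the highest of the 10 at 12.6 and 12.7. No such start was listed for Gm27011 in Banp (192 and 182) or for 2900060B14Rik in Clasp1, a microtubule protein gene (159 and 167). Outside protein-coding genes, 2410006H16Rik had 184 and 179 fragments at chr11:62602545-62603556.

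Other members were low, wide, or both ends of the same gene. The 3 lowest in rank were Gm51649 with 12 and 9 fragments, Gm5563 with 6 and 6, and Gm36112 with 13 and 7. The widest was at 5033406O09Rik, 3219 bp with 78 and 70 fragments, followed by Gm52551, 2651 bp with 32 and 35. The third was at the far end of Malat1, chr19:5793230-5795869, 2640 bp with 218 and 308 fragments. Malat1 was 1 of 15 lncRNA genes with 2 member regions.

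Counted by gene, 613 of the 12639 lncRNA genes of the table had a member region (4.85%), and 1594 (12.6%) had any region of the PPP2CA set at a boundary. A lncRNA gene whose region also reaches a protein-coding boundary falls outside the members, so each list below is given by its fates: member, shared with a protein-coding boundary, removed by an IgG peak, found in a single library, or none. Fates count peaks within 1 kb of the outermost start or end of a gene, so peaks farther inside a gene do not enter. The lists are descriptions, and no list was tested against others.

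Among lncRNAs known for nuclear or conserved roles, 8 of 19 had a member region (42.1%, exact 95% interval 20.3 to 66.5, beside 4.85% of all), and their 9 regions had medians of 29 and 41 fragments, beside 21 and 23 over all members. Besides Malat1 and Mir22hg (154 and 197) these were Neat1, the scaffold of paraspeckles (36 and 43), Crnde (29 and 41), Kcnq1ot1, the imprinted transcript that silences its neighbours (22 and 33), Oip5os1 (23 and 20), Jpx, an activator of Xist (19 and 21), and Dancr (17 and 17). By the fragments of their member regions, Malat1 and Mir22hg stood well above the other 6. The member region of Neat1 was the lowest of the 8 genes by rank. Its deposited fold was 2.93 in PPP2CA 1 and 3.48 in PPP2CA 2, also the lowest of the 8. The high-coordinate end of Neat1 was taller (997 and 1106) but was removed by a peak of IgG 1. Tug1, with 51 and 54 fragments, shared its region with the boundary of Morc2a. Lncpint had a peak in PPP2CA 2 alone (36) and Norad in PPP2CA 1 alone (6). No PPP2CA peak lay at a boundary of Airn, Firre, Ftx, H19, Meg3, Miat, Pvt1 or Xist. A missing peak says only that none was called at this depth near the outermost ends of the gene.

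Among lncRNAs described in blood or immune cells, 7 of 20 had a member region (35.0%, 15.4 to 59.2, beside 4.85%), with medians of 38 and 50 fragments. Dleu2 had 137 and 141, with the summit 1049 bp into the gene in both libraries. AI662270 had 71 and 62, Snhg12 had 50 and 52, and Mirt1 had 38 and 50. Morrbid, 161188 bp from the nearest protein-coding boundary, had 35 and 39 at the promoter with the AP-1 motif shown above. Lower were Ptgs2os2, from the neighbourhood of the prostaglandin synthase gene Ptgs2 (11 and 16), and Hotairm1, a transcript induced in myeloid differentiation (11 and 13). Gas5, a snoRNA host that rises in growth arrest, was much taller (226 and 263) but shared its region with Zbtb37, and Gm4419 (97 and 116) shared with Ywhaq. Trp53cor1, a target of p53, had a peak in PPP2CA 2 alone (30). The other 10 genes had none at a boundary, among them Hottip, Mir155hg and Mir17hg.

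Hosts of small RNAs had a member region in 26 of 216 cases (12.04%, 8.02 to 17.1, beside 4.85%), with medians of 26 and 28 fragments. Another 26 shared a region with a protein-coding boundary, 6 had a peak in a single library, Snhg8 was removed by an IgG peak, and 157 had none. Of the genes with a symbol starting Snhg, 10 of 18 were members (55.6%, 30.8 to 78.5, beside 4.85%), with medians of 40.5 in each library. They include Snhg7os, which is named for the strand opposite Snhg7. Snhg9 was the tallest (142 and 171), in the span of the ribosomal protein gene Rps2 and at a listed start of it. Next came Snhg12 (50 and 52), Snhg3 (47 and 56), Snhg5 (48 and 68) and Snhg15 (48 and 46), and then Snhg16 (34 and 35), Snhg7os (31 and 28), Snhg7 (25 and 24), Snhg17 (24 and 23) and Snhg4 (25 and 19). Snhg1, Snhg6 and Snhg10 shared their regions with protein-coding boundaries. Of the 14 microRNA hosts named Mir and hg, Mir22hg was a member (7.14%, 0.181 to 33.9, beside 4.85%). The other 13 had no PPP2CA peak at a boundary.

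**Figure D4:**
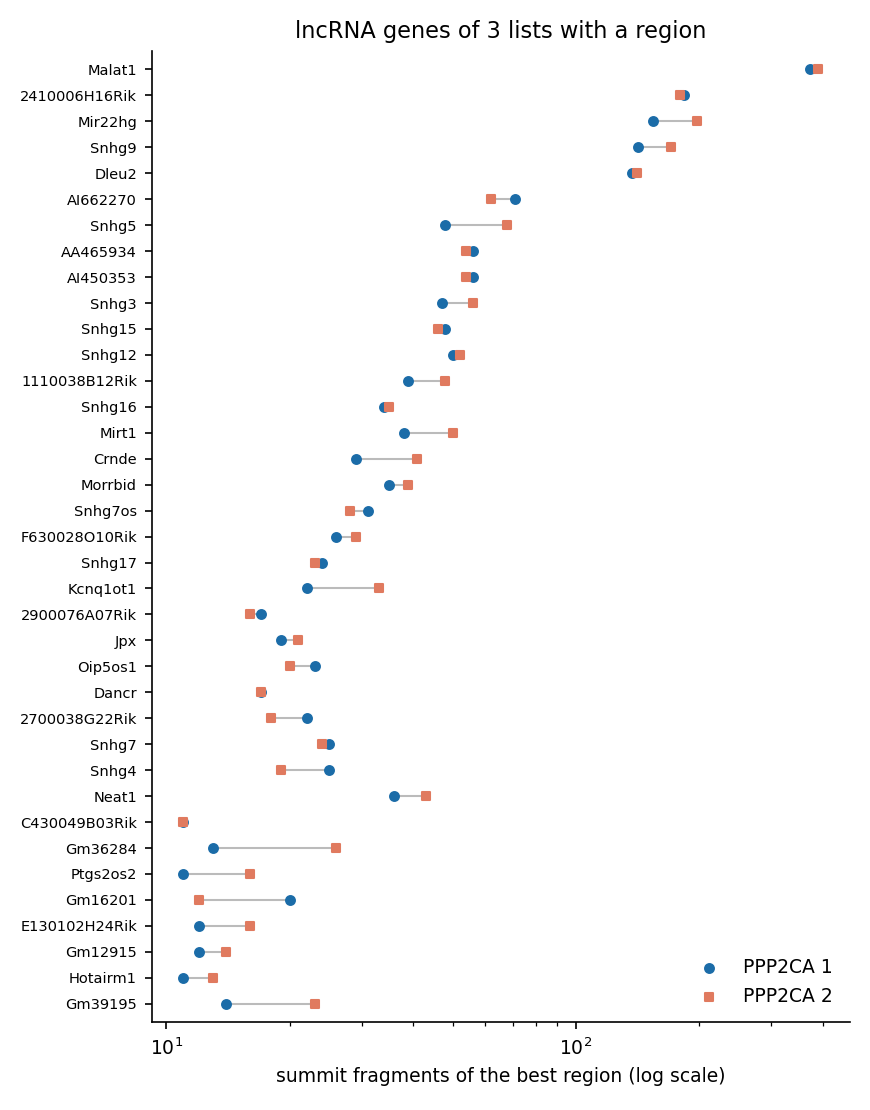
Summit fragments (log scale) of the best member region of each of the 37 lncRNA genes from the lists of small RNA hosts, nuclear and conserved lncRNAs and blood and immune lncRNAs; circles are PPP2CA 1 and squares PPP2CA 2. Genes are ordered by rank, from Malat1 (372 and 390) at the top, and AA465934 and AI450353 share a region (56 and 54).

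lncRNA genes named for the strand opposite another gene were members in 9 of 212 cases (4.25%, 1.96 to 7.91, beside 4.85%). A further 40 shared a region with a protein-coding boundary, as did 981 of all 12639 lncRNA genes. Hk1os had 116 and 113 fragments at a start of Hk1, the gene of a hexokinase that opens glycolysis. Zbtb11os1 had 112 and 131 at a start of Zbtb11. Zfp652os had 38 and 44 and Rab10os 44 and 44. Gene models without a descriptive name, Gm and Rik symbols, made up 11900 of the 12639 lncRNA genes. Of these, 553 had a member region (4.65%, beside 4.85%), and their 546 regions had medians of 21 and 22 fragments.

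Short genes of other kinds lay under a few members. A tRNA gene was overlapped by 15 members (2.50%, 1.41 to 4.09), with medians of 27 and 34 fragments, beside 0.373% of regions at protein-coding boundaries, 0.0758% inside protein-coding genes and 1.71% outside them. The best were Gm39827 over n-TEctc10 and n-TLcaa3 (57 and 59) and Gm40833 over n-TYgta7 (56 and 61). snoRNA genes lay under 6 members (1.00%, 0.368 to 2.16), all with at least 20 fragments in both libraries, and under 0.200% of regions at protein-coding boundaries. snRNA genes lay under 5 members (0.833%, 0.271 to 1.93), beside 0.651% of regions outside protein-coding genes and 0.0400% of those at protein-coding boundaries. microRNA genes lay under 2 members (0.333%, 0.0404 to 1.20), beside 0.706% of regions at protein-coding boundaries. Among the snRNA genes was Rn7sk, which keeps the elongation factor P-TEFb inactive and whose region, named by C920006O11Rik, had 46 and 55 fragments. tRNA genes and Rn7sk are transcribed by RNA polymerase III. Whether the signal at these places belongs to the short gene or to the lncRNA was not tested.

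The IgG filter removed 10 of 610 regions that otherwise met the rule (1.64%), beside 183 of 12021 other replicated regions (1.52%). The tallest of the 610 was among them. At chr19:5844597-5846782, the high-coordinate end of Neat1, the summits had 997 and 1106 fragments, and IgG 1 had a peak of 19 fragments there while IgG 2 had none. LOC115487798 had 946 and 1028 with 16 and 9 in the IgG libraries, and 2700054A10Rik had 599 and 468 with 100 and 138. Snhg8 had 186 and 210 with 9 in IgG 1 alone. Relative to the lowest background of each list, the PPP2CA signal was thus above that of IgG at Neat1 and below it at 2700054A10Rik. The member region of Neat1 is another one, chr19:5823044-5823932, beyond the low-coordinate end of the gene.

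Promoters of the member genes held more CG dinucleotides in the median than those of other lncRNA genes. The RefSeq table listed a promoter for 481 of the 613 genes, 586 promoters in all, with a median of 8 CG dinucleotides in 300 bases and 54.3% G+C. All other lncRNA promoters, 11002 in number, had 4 and 48.3%. Overlapping a member region were 345 lncRNA promoters, with a median of 14 CG dinucleotides and 57.7% G+C. lncRNA promoters with no PPP2CA peak, 10254 in number, had 3 and 47.7%. Protein-coding promoters on a region of the set had 24 and 62.7%, and lncRNA promoters on regions shared with a protein-coding boundary had 27 and 66.3%. Counting only member regions with no listed protein-coding start within 1 kb, the 265 lncRNA promoters on them had 11 CG dinucleotides and 56.0% G+C.

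**Figure D5:**
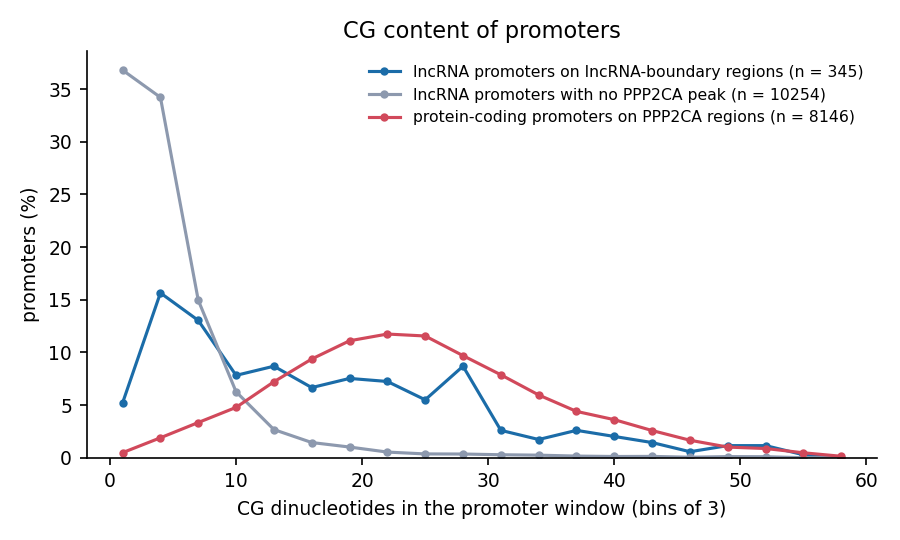
Share of promoters (%) by the number of CG dinucleotides in the window of 300 bases, in bins of 3, for 345 lncRNA promoters on member regions, 10254 lncRNA promoters with no PPP2CA peak and 8146 protein-coding promoters on PPP2CA regions. The lncRNA promoters on member regions spread over low and high counts, with a median of 14 beside 3 and 24.

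Summit height moved with CG content within the members. Among the 301 members on a listed lncRNA promoter, 64 had up to 5 CG dinucleotides, and their medians were 18 and 19 fragments and 790.5 bp of width. The 113 with 6 to 19 had 21 and 21 fragments and 944 bp, and the 124 with 20 or more had 35 and 35 fragments and 1105.5 bp. Of these last, 52 lay near a listed protein-coding start, beside 2 of the 64. The quartiles of the classes overlapped, and the part that base composition plays in the heights was not tested.

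The 12 motifs were each read on both strands. Core promoter motifs were the TATA box spelled TATAAA, the box spelled and named CCAAT, and the GC box spelled GGGCGG. Motifs of transcription factors were CREB sites as TGACGTCA, ATF4 sites as TGACGCAA, ETS sites as CCGGAAGT, NRF1 sites as GCGCATGC, YY1 sites as AAGATGGC, AP-1 sites as TGAGTCA, the E-box as CACGTG, the sites of GATA factors as AGATAAG and NF-kappaB sites as GGGACTTTC. Shares are given first for the 345 promoters on member regions, with their interval, then for all 586 promoters of member genes, and then for all other lncRNA promoters, protein-coding promoters on the set and all promoters of the table. The GC box was in 48.1% of the 345 (42.7 to 53.5) and 34.0% of the 586, beside 15.4%, 72.2% and 35.7%. The E-box was in 10.4% (7.42 to 14.2) and 8.02%, beside 5.78%, 11.1% and 7.15%. In both the members stood above the other lncRNA promoters. They were below the protein-coding ones in the GC box, while the E-box interval over the 345 held the protein-coding share.

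The ETS motif was in 3.77% (2.02 to 6.36) and 2.39%, beside 1.54%, 10.2% and 3.89%. Its interval over promoters on member regions lay above the share of other lncRNA promoters. The interval over the 586 (1.31 to 3.98) held that share. The TATA box was in 9.28% (6.43 to 12.8) and 12.3%, beside 15.7%, 5.25% and 13.6%. GATA was in 1.16% (0.317 to 2.94) and 1.88%, beside 3.88%, 1.23% and 3.04%. The members were thus below other lncRNA promoters in both of the last motifs. CCAAT was in 31.9% (27.0 to 37.1) and 31.4%, beside 36.2%, 39.2% and 37.4%. Its interval over promoters on member regions held the share of other lncRNA promoters. The interval over the 586 (27.7 to 35.3) lay below that share. AP-1 was in 6.67% (4.27 to 9.84) and 5.46%, beside 6.24%, 2.75% and 5.202%, and YY1 in 2.61% (1.20 to 4.89) and 1.88%, beside 2.21%, 5.40% and 2.75%. For AP-1 and YY1 the intervals over both sets of promoters held the share of other lncRNA promoters. The remaining motifs were rare: NRF1 was in 2.90% and 2.22%, beside 1.18% of other lncRNA promoters, CREB sites in 2.32% and 1.54%, beside 0.945%, ATF4 sites in 0.870% and 0.683%, beside 0.182%, and NF-kappaB sites in 0.870% and 0.512%, beside 0.336%. A match is a string of letters and no sign of a bound factor, and the GC box and CG counts share letters.

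At both limits of the rule the heights just inside overlapped those just outside. Just inside the 1 kb limit to a lncRNA boundary lay Gm36486 at 999 bp (18 and 20 fragments), Gm30048 at 987 bp (40 and 37) and D730003K21Rik at 986 bp (10 and 10). Just outside lay Gm28403 at 1001 bp (8 and 12), Gm39265 at 1005 bp (13 and 14) and Gm32806 at 1005 bp (25 and 39). At the protein-coding limit the nearest members were Gm30144 at 1035 bp (21 and 16) and 5830448L01Rik at 1052 bp (29 and 28). The nearest regions left out were Gm30364 at 981 bp (23 and 25), Gm42456 at 977 bp (29 and 35) and Gm46530 at 934 bp (21 and 17).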

How the data were processed

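CUT&Tag gave 4 libraries, 2 of PPP2CA and 2 of IgG, grouped and numbered by the sample titles. The authors deposited 1 narrowPeak list per library. The deposited columns give a score, a fold (the ratio of summit to local background), the −log10 p and the −log10 q of each peak, and the summit position. Per the submitters' processing notes the tools were MACS2, BWA, Trimmomatic, HOMER, ChIPseeker and deepTools and the build mm10, also given as GRCm38, with no roles, settings or versions. The sources used here do not give the control used in peak calling, if any.

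Fragments at a summit were recovered as the whole number n for which (n + 1) over (background + 1) equals the fold while the deposited p is the Poisson chance of more than n, which gave whole numbers for 100% of the peaks in each list. Total reads were not used here, so depth is known only through these summits, of median 18 in each PPP2CA list and 4 in each IgG list. All intervals are 95% intervals by the exact Clopper-Pearson method on counts of regions, genes or promoters, and they hold counting error alone. Regions were merged at an overlap of 1 bp. Genes came from the RefSeq gene table of GRCm38, with 12639 lncRNA and 21779 protein-coding genes. Left out were 340 gene entries placed below base 3000000 of a chromosome other than Y, where the assembly has no sequence. Strand was known only for genes with a listed RefSeq promoter. The binomial test of summit fragments scaled the libraries by their summed fragments at shared summits. It takes fragments as independent, which PCR copies are not. The recovery of fragments and the test were tested on simulated data.

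Genes named in the text are the 10 best, 3 lowest and 3 widest members, the 3 best of each gene list and those nearest each limit. Some items that this rule names are not reported here. Any other gene was chosen after its values were known. The members, lists and motifs were chosen with earlier results of these data known. Listed genes that the table does not hold as lncRNAs, such as Tsix, were not counted. Alternatives were the windows, the peak threshold, the height, the overlap, each library left out and the IgG filter. Tools were Python 3.11.15, numpy 2.4.6, scipy 1.17.1, pandas 2.3.3, statsmodels 0.14.6 and matplotlib 3.10.9.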

Additional observations from a re-analysis of the deposited data

How the results depend on the processing

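No paired analysis was possible because no result comes from a test between the PPP2CA and IgG groups, whose libraries share only a replicate number. The share of the set at lncRNA boundaries only (4.82%) followed the definition: it was 3.97% with a lncRNA window of 500 bp and 6.31% with 2 kb, 4.33% and 3.63% with a protein-coding window of 2 kb and 5 kb, and 4.36% (299 regions) with at least 20 fragments in both libraries. It was 4.004% (498 regions) without members near a listed protein-coding start, an alternative chosen after seeing the data, which also lowered the share inside protein-coding genes from 38.3% to 25.7%. Leaving out each library in turn gave 602 to 855 regions and 4.79% to 4.89%. A −log10 q of 5 or more kept 433 of the 600. No member was called different between PPP2CA libraries under the other scaling (8 members at an unadjusted p under 0.05) or with summits within 500 bp (18 of 580). The GC box share was 34.0% over all promoters of member genes and 48.1% over lncRNA promoters on a member region. The low depth of the IgG lists limits what their filter can remove, and regions with few fragments depend on the peak threshold: all 3 lowest members were lost at the stricter one. Of the 24 named regions, 9 were lost with the protein-coding window of 5 kb.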

Other observations

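The members named here were picked after their values were seen, share no tested theme, and are given with the nearest protein-coding gene, which need not be close. Lockd, 2516 bp from the cell cycle inhibitor gene Cdkn1b, had 56 and 72 fragments in PPP2CA 1 and 2. Gm32039, 13547 bp from the antiproliferative gene Btg2, had 183 and 196. D730003I15Rik, 40747 bp from the stress factor gene Atf3, had 82 and 109. Gm51544, a lncRNA gene with 2 member regions, had 96 and 104 in the span of Adgrg1, a receptor gene expressed in haematopoietic stem cells, and 79 and 89 in the span of Adgrg3. Gm51701, for which the chemokine receptor gene Ccr1 is the nearest protein-coding gene, had 117 and 139 at its start and 60 and 55 at its end.

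Members were spread over the chromosomes, with most on 2 (59, 9.83% beside 8.04% of the whole set), 11 (56, 9.33% beside 9.06%) and 5 (48, 8% beside 6.68%). Chromosome X held 14 (2.33%), beside 2.29%, and Y held 0. In a single PPP2CA library, 202 further regions at lncRNA boundaries only were found in PPP2CA 1 and 261 in PPP2CA 2.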
